A study of Mus musculus with 10 samples.

Results

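Txnip and Arrdc1 to Arrdc4, the 5 arrestin-domain genes among the 11617 genes listed in the deposited expression table, were followed across all 10 libraries of a study of mouse bone-marrow-derived macrophages. They were taken by gene symbol, and the family was chosen by measured values: Txnip and Arrdc4 were lower with AmTARS than with Pam3CSK4 at 1 h. The values at 1 h are therefore given as a description, without a test, as are all comparisons with Control, whose libraries stood behind that choice. The cells came from C57BL/6 mice, whose age the labels give as 6 weeks in one place and 7 weeks in another, and were grown in DMEM with 10% FBS and GM-CSF at 50 ng/ml. The groups were AmTARS 1 h, AmTARS 3 h, Pam3CSK4 1 h, Pam3CSK4 3 h and Control, with 2 libraries each. AmTARS, by its name the threonyl-tRNA synthetase of Akkermansia muciniphila, a bacterium of the gut, was given at a dose labelled 0.5 mm, a unit that cannot be read with certainty. Pam3CSK4, a synthetic lipopeptide agonist of the receptor TLR2, was given at 10 ng/ml. The study set AmTARS and Pam3CSK4 side by side as TLR2 ligands, and the doses are not on a common scale. The labels give no time and no treatment for Control, and do not say whether libraries of a group came from separate mice or cultures, so the spread between them may be technical.

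Alpha-arrestins are adaptor proteins that carry an arrestin fold and, in their tails, PPxY motifs that bind the WW domains of Nedd4-family ubiquitin ligases. Through them they steer receptors and transporters at the cell surface towards internalisation and breakdown. Txnip also binds reduced thioredoxin and limits glucose entry by drawing the transporter Slc2a1 from the plasma membrane. Transcription of Txnip and Arrdc4 follows glucose: MondoA and ChREBP, each paired with Mlx, bind carbohydrate response elements made of paired E-box-like elements 5 bases apart.

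The 250 bases before the annotated start of Txnip and of Arrdc4 are shown because these are the family members known as targets of Mondo factors. RefSeq windows on GRCm38.p6 matched 5 of 5 family genes. The Txnip window is chr3:96557707-96557956 on the plus strand, and the Arrdc4 window is chr7:68749239-68749488 on the minus strand, both written 5′ to 3′. Capitals mark the E-box-like elements CACGAG in Txnip and the E-box CACGTG in Arrdc4.
Txnip: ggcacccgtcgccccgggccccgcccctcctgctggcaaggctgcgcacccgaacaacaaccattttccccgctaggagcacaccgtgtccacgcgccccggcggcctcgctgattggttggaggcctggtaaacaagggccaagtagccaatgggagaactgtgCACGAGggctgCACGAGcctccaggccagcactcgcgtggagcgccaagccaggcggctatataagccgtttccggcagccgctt
Arrdc4: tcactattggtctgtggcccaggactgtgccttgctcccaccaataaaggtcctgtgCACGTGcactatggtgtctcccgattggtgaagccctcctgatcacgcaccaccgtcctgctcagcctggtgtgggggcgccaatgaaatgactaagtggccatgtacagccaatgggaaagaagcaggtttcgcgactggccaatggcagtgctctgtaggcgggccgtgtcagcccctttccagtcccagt

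Each window was searched on both strands. The Txnip elements lie 85 to 80 and 74 to 69 bases before the start, with 5 bases between them. This spacing, spelled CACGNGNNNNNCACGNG, was held by 15 of 32851 mouse promoter windows of the same length, or 0.0457%. Besides Txnip, the listed genes with the pair were A430005L14Rik, Fem1b, Fnip1, Irak1bp1, Man2b2, Nfkb2 and Rbbp4. Txnip also held a FoxO motif, GTAAACA, 121 to 115 bases before the start, a motif found in 3.17% of windows, and a TATA element, TATAA, at 25 to 21, found in 22.8%. Arrdc4 held a single E-box at 193 to 188 bases, a motif in 6.02% of windows, and 6 copies of CCAAT, present in 33.8%. The element CACGAG, present in 5.37% of windows, occurred 2 times before Arrdc1 and 1 time before Arrdc2. In the 3 windows of Arrdc3 the letters of the E-box, of CACGAG and of the spaced pair were not found. GC boxes (GGGCGG, 32.7% of windows) were found in a window of 4 of the 5 genes, Arrdc4 being the exception, and the NF-kB motif (7.25% of windows) in none of the family's 7 windows. The letters describe the windows and say nothing of which factors were bound.

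Txnip was the most abundant of the family. In CPM (read counts scaled to a common library size, taken back from the deposited log2(CPM + 1) values), Txnip was at 230 and 232 in the AmTARS 1 h libraries, 369 and 361 in AmTARS 3 h, 421 and 420 in Pam3CSK4 1 h, and 379 and 377 in Pam3CSK4 3 h, against 463 and 452 in Control. The AmTARS 1 h libraries were the low ones, and no group overlapped another. Such gaps were common among tested genes, at 55.1% between the ligands at 3 h, 37.7% between the ligands at 1 h, and 70.4%, 71.3%, 75.8% and 75.6% for AmTARS 1 h, AmTARS 3 h, Pam3CSK4 1 h and Pam3CSK4 3 h against Control. They were found in 44.2% of genes for 3 h against 1 h of AmTARS and in 63.5% for 3 h against 1 h of Pam3CSK4. The share of genes with every group apart is not given here. Relative to Control the log2 difference was -0.98 (SE 0.04) at 1 h of AmTARS, a level ratio of 0.505, and -0.12 (SE 0.04) at 1 h of Pam3CSK4. By 3 h the differences from Control were -0.33 with AmTARS and -0.28 with Pam3CSK4 (SE 0.04 each). Quantile normalization moved the differences from Control to -1.09 with AmTARS at 1 h, -0.45 with AmTARS at 3 h, -0.25 with Pam3CSK4 at 1 h and -0.48 with Pam3CSK4 at 3 h, so that the order of the ligands at 3 h turned round. Within AmTARS, the level averaged 365 ± 5.89 CPM at 3 h and 231 ± 1.34 CPM at 1 h (SD, n = 2 each), a log2 difference of 0.66. Within Pam3CSK4 it averaged 378 ± 1.17 CPM at 3 h and 421 ± 0.584 CPM at 1 h, a difference of -0.15. Bulk libraries cannot tell fewer cells that make a transcript from less of it per cell.

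Arrdc4, the closest relative of Txnip in its known regulation by glucose, had another order of groups. Its level was 35.0 and 38.4 CPM in AmTARS 1 h, 43.8 and 46.3 in AmTARS 3 h, 50.7 and 51.8 in Pam3CSK4 1 h, and 72.7 and 80.2 in Pam3CSK4 3 h, against 46.9 and 48.3 in Control. The order from high to low was Pam3CSK4 3 h, Pam3CSK4 1 h, Control, AmTARS 3 h and AmTARS 1 h, with no overlap between groups, although the difference of AmTARS 3 h from Control was close to its SE. Gaps between pairs of groups were common among tested genes, by the shares given for Txnip. The difference from Control was -0.37 at 1 h and -0.08 at 3 h of AmTARS, and 0.10 at 1 h and 0.67 at 3 h of Pam3CSK4 (SE 0.06). With Pam3CSK4 at 3 h, Arrdc4 stood above Control and Txnip below it.

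Arrdc3, an adaptor known for the ubiquitination of beta-adrenergic receptors, stood low in 1 group. Its level was 34.0 and 38.2 CPM in AmTARS 1 h, 35.7 and 35.2 in AmTARS 3 h, 33.3 and 32.5 in Pam3CSK4 1 h, and 15.3 and 16.6 in Pam3CSK4 3 h, against 37.3 and 36.2 in Control. AmTARS 1 h overlapped both AmTARS 3 h and Control, so the order of these 3 is not resolved. The differences from Control were -0.03 and -0.05 with AmTARS at 1 h and 3 h, and -0.16 and -1.16 with Pam3CSK4 (SE 0.07). Within Pam3CSK4 it averaged 15.9 ± 0.928 CPM at 3 h and 32.9 ± 0.510 CPM at 1 h, a log2 difference of -1.002.

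Arrdc1, known for driving the budding of microvesicles from the plasma membrane, was at 59.2 to 64.9 CPM in the 8 treated libraries, against 50.6 and 51.0 in Control. AmTARS 1 h, AmTARS 3 h and Pam3CSK4 3 h overlapped, at 60.3 ± 1.05, 60.8 ± 1.40 and 60.6 ± 2.06 CPM (SD, n = 2 each). Arrdc2, a less studied adaptor of the family, was lowest in Control as well, at 17.9 and 18.2 CPM, and between 18.6 and 20.9 CPM in treated libraries. Its AmTARS 1 h and Pam3CSK4 3 h libraries overlapped.

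**Figure D1:**
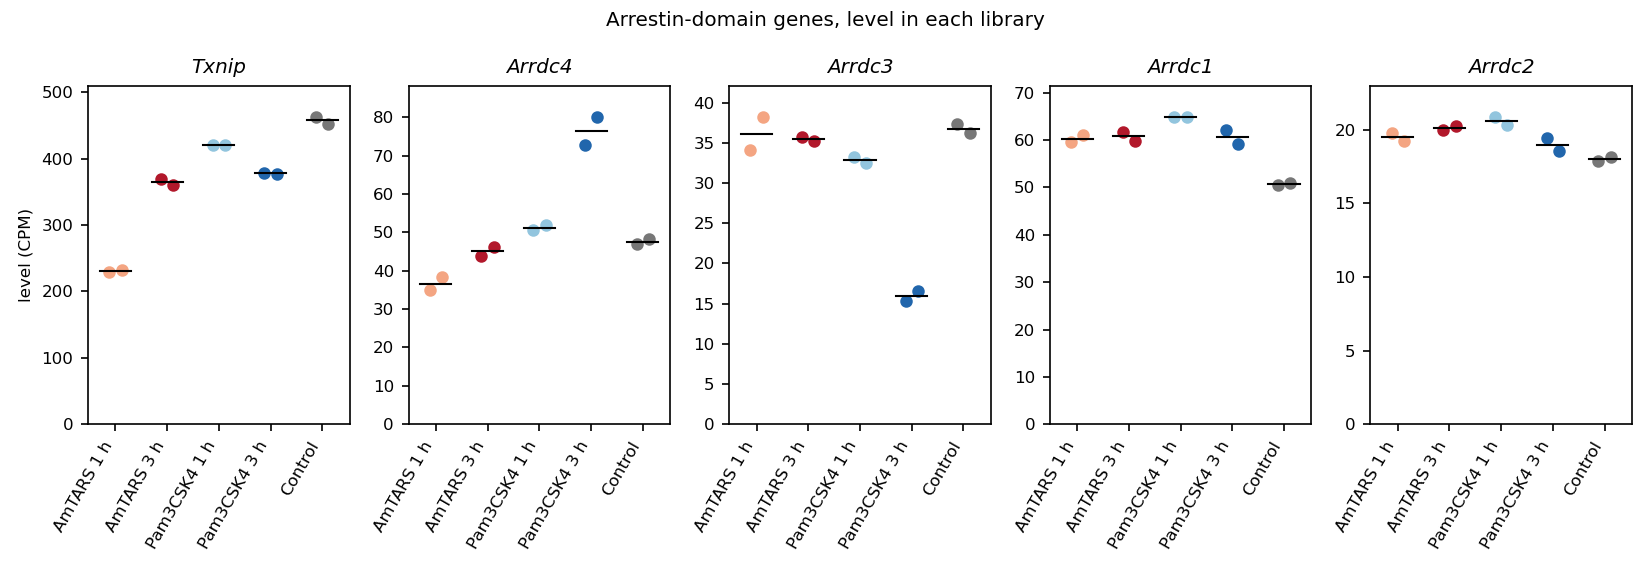
Level in CPM (vertical axis, from 0, own scale for each gene) of the 5 arrestin-domain genes in each of the 10 libraries (points), with the mean of each group of 2 (line). Txnip and Arrdc4 are lowest in AmTARS 1 h, Arrdc3 is lowest in Pam3CSK4 3 h, and Arrdc1 and Arrdc2 are lowest in Control.

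Genes of unlike length can be set beside each other per kilobase of transcript. On that scale, CPM per kb, Control had 162 for Txnip, 30.5 for Arrdc1, 12.2 for Arrdc4, 8.97 for Arrdc3 and 7.65 for Arrdc2. At Pam3CSK4 3 h, Arrdc4 was at 19.6 and Arrdc3 at 3.89 CPM per kb, while at AmTARS 3 h they were at 11.5 and 8.64. The log2 span between the highest and the lowest group mean was 1.16 for Arrdc3, 1.04 for Arrdc4, 0.98 for Txnip, 0.35 for Arrdc1 and 0.18 for Arrdc2. The median span of all 11407 tested genes was 0.28, and 1.27%, 1.68%, 1.98%, 35.8% and 77.5% of genes spanned more than these 5 in that order. The low end of the Txnip and Arrdc4 spans is AmTARS 1 h, a group behind the choice of the family. Control is the high end of the Arrdc3 span. The Arrdc1 and Arrdc2 spans run from Control to Pam3CSK4 1 h. Those groups stood behind the choice too, so the shares of all 5 genes are a description only.

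The differences from Control were related to the annotated transcript length of genes, so they are also given after a correction for it. Across genes, the log2 difference from Control ran against transcript length, with a Spearman rho of -0.742 for AmTARS 1 h, -0.672 for AmTARS 3 h, -0.739 for Pam3CSK4 1 h and -0.513 for Pam3CSK4 3 h (11366 genes, which are not independent). Between the ligands it was -0.00659 at 3 h and 0.348 at 1 h. After each library was corrected for length and GC content, the Txnip difference from Control was -0.97 with AmTARS at 1 h, -0.32 with AmTARS at 3 h, -0.11 with Pam3CSK4 at 1 h and -0.27 with Pam3CSK4 at 3 h. Arrdc4 moved to -0.28 and -0.01 with AmTARS and to 0.21 and 0.75 with Pam3CSK4, at 1 h and 3 h each. The Arrdc3 difference was -1.10 with Pam3CSK4 at 3 h, and it lay between 0.01 and 0.08 in the other groups, where it had been below 0. Arrdc1, at 0.24 to 0.35 above Control as deposited, was at 0.03 to 0.07 after the correction, and Arrdc2, at 0.07 to 0.18 as deposited, at -0.04 to 0.03.

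**Figure D2:**
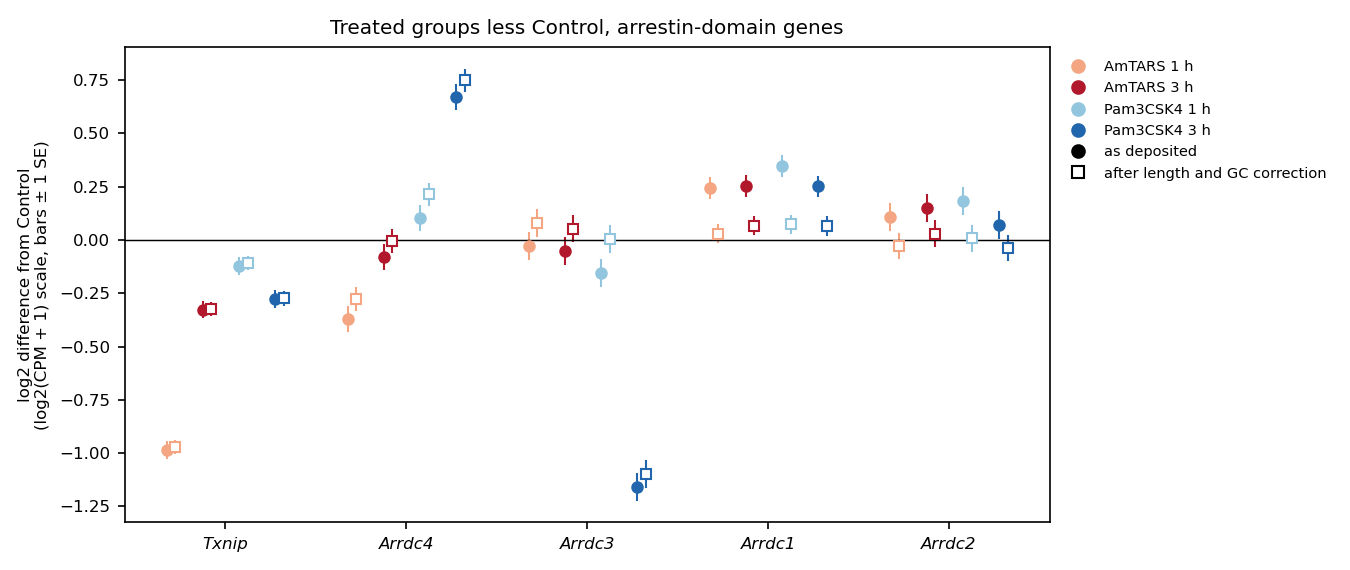
Log2 difference of each treated group from Control (vertical axis) for each arrestin-domain gene, as deposited (filled circles) and after the correction for transcript length and GC content (open squares), with bars of 1 SE. Txnip in AmTARS 1 h, Arrdc4 in Pam3CSK4 3 h and Arrdc3 in Pam3CSK4 3 h keep most of their distance from 0, while Arrdc1 and Arrdc2 come close to 0 after the correction.

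Positions are on mm10 with GENCODE M21. Txnip lies at chr3:96557957-96561883 on the plus strand, Arrdc3 at chr13:80883384-80896042 on the plus strand, Arrdc4 at chr7:68736995-68749241, Arrdc1 at chr2:24925352-24935252 and Arrdc2 at chr8:70835129-70839720, the last 3 on the minus strand. The antisense gene Gm15441 spans Txnip from the minus strand (chr3:96555765-96566801), and the minus-strand transcript 1700023H06Rik (chr13:80884224-80885524) lies within Arrdc3. The kit marks strand, but whether the counting used it is not given in the sources used here, and neither antisense gene is listed in the table. Reads behind 1 value numbered 7492 to 16218 for Txnip, 1240 to 2889 for Arrdc4, 520 to 1325 for Arrdc3, 1749 to 2331 for Arrdc1 and 564 to 756 for Arrdc2.

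The libraries held 27398791 to 37559810 reads in listed genes. The CPM of all listed genes added up to 998260 to 1037796 in treated libraries and to 959639 and 960837 in Control. Macrophage markers were listed in 8 of 8 cases and summed to 50533 to 53970 CPM in treated libraries and 49274 to 50987 CPM in Control, most of it Lyz2. Of markers for other cells, dendritic cell genes (3 of 6 listed; Flt3, Zbtb46 and Cd209a not listed) summed to 238 to 261 CPM in treated libraries and 208 to 210 CPM in Control. Neutrophil genes (5 of 6; Ly6g not listed) summed to 1469 to 1910 CPM in treated libraries and 1132 to 1208 CPM in Control. Fibroblast genes (4 of 4) summed to 1211 to 1422 CPM in treated libraries and 1402 to 1473 CPM in Control. T cell genes (1 of 4, Cd4) and B cell genes (1 of 4, Cd79b) stayed at or below 13.4 CPM, and the 2 NK cell genes were not listed. The part of these markers in the family's values was not tested.

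The 1 h values that chose these genes came from no library of AmTARS 3 h or Pam3CSK4 3 h, and between these groups the family split. Earlier results of these data were, however, known when the family and the test were chosen. Arrdc3 was higher with AmTARS, Arrdc4 was lower, and Txnip, Arrdc1 and Arrdc2 did not pass the test. The test was limma's moderated test on the deposited log2 values, with Benjamini-Hochberg adjustment over all 11407 genes tested, and it called 17.1% of them at an adjusted p below 0.05, with 8.04% higher and 9.08% lower with AmTARS. The calls on 2 of 5 family genes, 1 in each direction, are to be read against those shares. Arrdc3 averaged 35.5 ± 0.394 CPM with AmTARS and 15.9 ± 0.928 CPM with Pam3CSK4 (SD, n = 2 each). The log2 difference was 1.11 (SE 0.07, 95% interval 0.97 to 1.24), with a limma adjusted p of 1.68e-10. It stood at place 2 from the highest among all tested genes. Arrdc4 averaged 45.1 ± 1.78 CPM with AmTARS and 76.4 ± 5.25 CPM with Pam3CSK4, a log2 difference of -0.75 (SE 0.06, interval -0.88 to -0.62, limma adjusted p = 1.29e-08), at place 138 from the lowest.

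Txnip, which had been apart by -0.86 (SE 0.04) between the ligands at 1 h, differed by -0.05 (SE 0.04) at 3 h, with an interval of -0.14 to 0.04 and a limma adjusted p of 0.479. Its libraries did not overlap, at 369 and 361 CPM with AmTARS and 379 and 377 CPM with Pam3CSK4, and 55.1% of tested genes showed such a gap in this comparison. Arrdc2 differed by 0.08 (interval -0.06 to 0.22, limma adjusted p = 0.482), and Arrdc1 by 0.00 with an interval of -0.10 to 0.11 (limma adjusted p = 0.976). The Arrdc3 and Arrdc4 calls held under all 21 alternative settings, among them leaving out each library in turn. With length and GC correction the Arrdc3 difference was 1.15 and that of Arrdc4 -0.75.

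**Figure D3:**
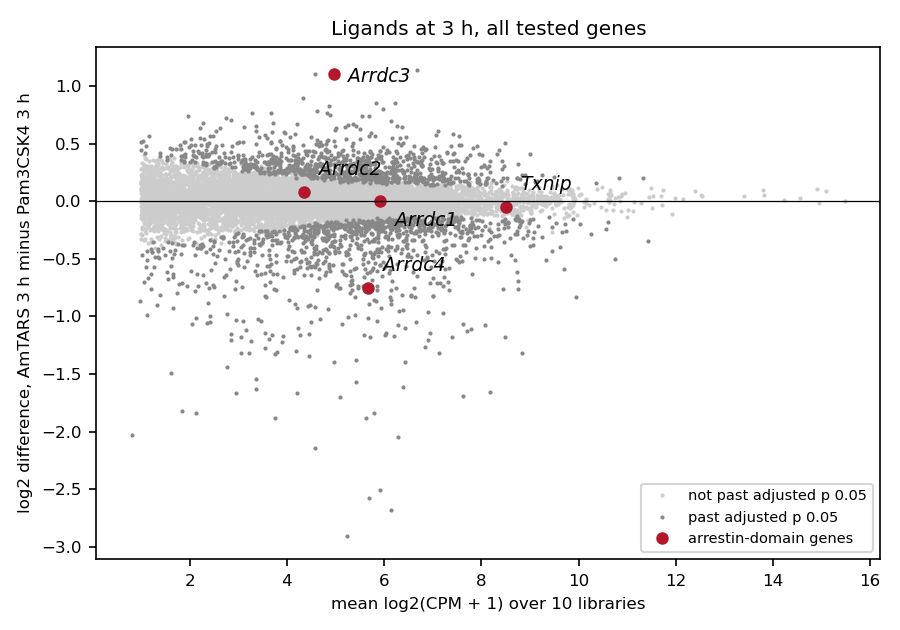
Log2 difference of AmTARS 3 h minus Pam3CSK4 3 h (vertical axis) against the mean log2(CPM + 1) over the 10 libraries (horizontal axis) for the 11407 tested genes, grey by whether they passed an adjusted p of 0.05, with the arrestin-domain genes in red. Arrdc3 lies near the top at 1.11, Arrdc4 at -0.75, and Txnip, Arrdc1 and Arrdc2 lie near 0.

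At 1 h the same contrast, which chose the family, gave -0.86 for Txnip and -0.47 for Arrdc4, at places 6 and 16 from the lowest of all tested genes. Arrdc3 was at 0.13, Arrdc1 at -0.10 and Arrdc2 at -0.07.

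Other genes followed the pattern of Arrdc4 more closely than that of Txnip. Likeness was the Pearson correlation of log2 levels over the 10 libraries, which form 5 groups of 2, among the 1347 genes that averaged 5 CPM or more and whose group means spanned 0.5 or more. For Arrdc4 the 5 most alike were Spaca6 (r = 0.963), Dcbld2 (r = 0.951), Errfi1 (r = 0.943), Slc25a37 (r = 0.932) and Zhx2 (r = 0.921). Errfi1 encodes a feedback inhibitor of the EGF receptor and Slc25a37 the mitochondrial iron importer mitoferrin. All 5 had their highest group mean in Pam3CSK4 3 h and their lowest in AmTARS 1 h. For Txnip the 5 most alike were Usp42 (r = 0.771), Nid1 (r = 0.696), D3Ertd254e (r = 0.681), Erc1 (r = 0.639) and Prrc2c (r = 0.634), all with their highest mean in Control and their lowest in AmTARS 1 h. Their AmTARS 1 h means less those of Pam3CSK4 1 h ran from -0.16 to -0.04, and that of Txnip was -0.86. Arrdc4 came at place 25 of likeness to Txnip (r = 0.514), and Txnip at place 482 of likeness to Arrdc4. Arrdc3 ran opposite to Arrdc4 (r = -0.887, place 1335) and stood at place 1015 of likeness to Txnip (r = -0.123). The values are a description of these libraries as deposited, without the length and GC correction, and carry no test. The part of the length trend in these likenesses was not tested.

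**Figure D4:**
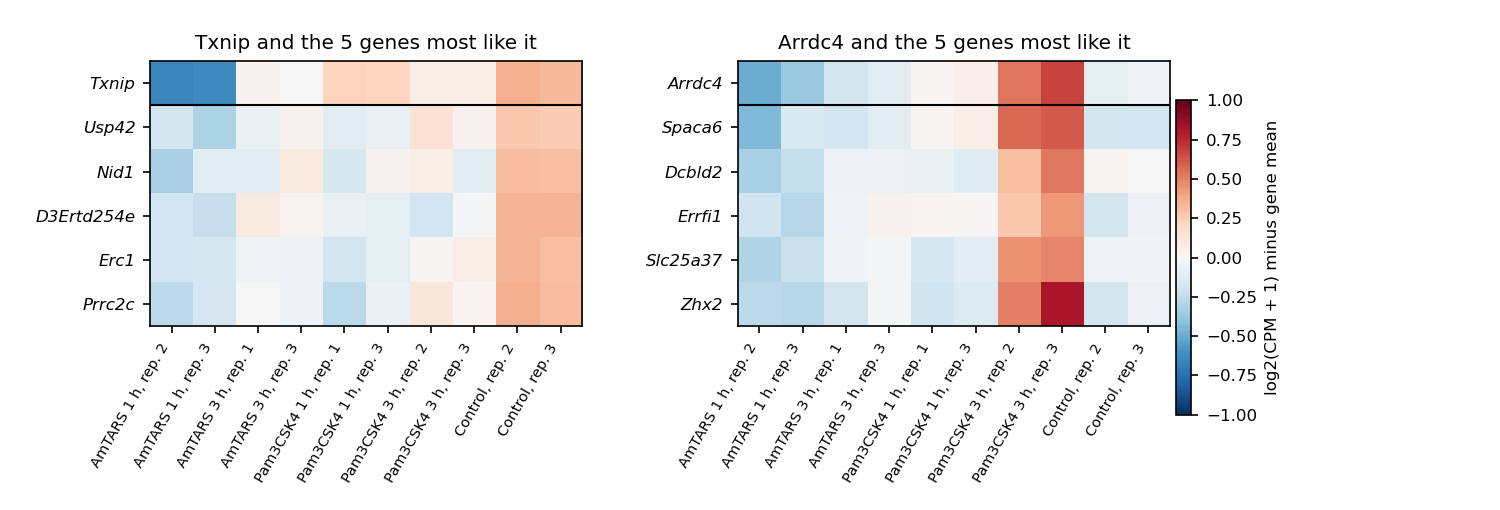
Log2(CPM + 1) less the mean of each gene (colour, from -1 in blue to 1 in red) in the 10 libraries (columns) for Txnip and the 5 genes most like it, and for Arrdc4 and the 5 genes most like it. Txnip stands out in both AmTARS 1 h libraries, and the Arrdc4 group is highest in both Pam3CSK4 3 h libraries.

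Around the family, 62 measured genes of 6 lists were examined: the Mondo, Mlx and Max network, the thioredoxin system, glucose transporters and hexokinases, Nedd4-family ligases and their adaptors, other arrestin-fold genes, and FoxO factors with their targets. Between the ligands at 1 h, limma called 0 of the 62, beside 0.184% of all genes tested, and voom called 0. At an unadjusted p below 0.05 there were 8 of the 62, beside 957 of all 11407 genes. At 3 h several lists held called genes, and those counts stand beside the 17.1% of all genes called. Relative to Control, 38.7% of all genes were called for AmTARS 1 h (18.9% higher, 19.8% lower), 36.7% for AmTARS 3 h (18.8% and 17.9%), 48.7% for Pam3CSK4 1 h (23.9% and 24.8%) and 48.9% for Pam3CSK4 3 h (24.7% and 24.2%).

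Of 8 measured glucose transporters and hexokinases, 3 were lower and 1 was higher with AmTARS than with Pam3CSK4 at 3 h. The list median was 0.02 beside 0.01 for all genes. Slc2a1, the transporter that Txnip holds back, was at 145 and 156 CPM with AmTARS and 220 and 276 CPM with Pam3CSK4, a log2 difference of -0.71 (SE 0.07, limma adjusted p = 2.75e-07). Slc2a6, a lysosomal hexose transporter of macrophages, averaged 59.4 ± 1.92 CPM with AmTARS and 114 ± 13.3 CPM with Pam3CSK4 (SD, n = 2 each), a difference of -0.93 (SE 0.06, limma adjusted p = 1.30e-09). Slc2a9, a urate transporter, was the gene that was higher (0.26). It differed from Control at 3 h by -0.05 with AmTARS and -0.31 with Pam3CSK4. Against Control at 3 h, Slc2a1 was higher by 0.45 with AmTARS and by 1.16 with Pam3CSK4, and Slc2a6 by 0.42 and 1.35. The call on Slc2a9 was lost without either AmTARS 3 h library or without Pam3CSK4 3 h replicate 3.

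In the thioredoxin system, 4 of 16 measured genes were lower with AmTARS than with Pam3CSK4 at 3 h and 12 did not pass (list median -0.06). Txnrd1, which reduces thioredoxin, averaged 234 ± 2.53 CPM with AmTARS and 365 ± 46.3 CPM with Pam3CSK4 (SD, n = 2 each), a difference of -0.64 (SE 0.06, limma adjusted p = 1.54e-07). Prdx5, a peroxiredoxin, was lower by 0.43 and Srxn1, which repairs oxidised peroxiredoxins, by 0.42 on the log2 scale. Against Control at 3 h, Txnrd1, Prdx5 and Srxn1 were higher by 0.24, 0.41 and 0.41 with AmTARS. With Pam3CSK4 they were higher by 0.88, 0.84 and 0.83. Txn1, the thioredoxin that Txnip binds, differed by -0.08 between the ligands at 3 h (limma adjusted p = 0.450). Relative to Control, 10 of the 16 rose with AmTARS at 1 h, 13 with AmTARS at 3 h, and 11 with Pam3CSK4 at each time. With length and GC corrected, these counts were 6, 10, 8 and 9. Txn1 was higher than Control by 0.37 with AmTARS and 0.48 with Pam3CSK4 at 1 h, and by 0.16 and 0.22 after the correction. Without AmTARS 1 h replicate 2 or Control replicate 2 the 10 became 6 and 5, and without AmTARS 3 h replicate 1 or Control replicate 2 the 13 became 8.

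FoxO factors and targets were higher with AmTARS than with Pam3CSK4 at 3 h in 6 of 14 measured genes, and 8 did not pass (list median 0.23). Sesn1, a stress-induced inhibitor of mTORC1 signalling, was at 50.9 and 49.5 CPM with AmTARS and 31.9 and 27.5 CPM with Pam3CSK4, a log2 difference of 0.74 (SE 0.06, limma adjusted p = 2.65e-08). Irs2, an insulin receptor substrate, was higher by 0.50. Pik3ip1, an inhibitor of PI3 kinase, was higher by 0.39 (SE 0.13, limma adjusted p = 0.0452). Its level was near the filter of 1 CPM, at 2.23 CPM with AmTARS and 1.47 CPM with Pam3CSK4. The count of 6 was 3 without AmTARS 3 h replicate 3 and 4 without Pam3CSK4 3 h replicate 3. Relative to Control, 5 of the 14 fell with AmTARS and 6 with Pam3CSK4 at 1 h, and 9 and 10 at 3 h, with 3, 5, 6 and 10 in that order after the correction. The 9 with AmTARS at 3 h became 2 without AmTARS 3 h replicate 1 and 5 without Control replicate 3, and the 5 with AmTARS at 1 h became 3 without AmTARS 1 h replicate 3 or Control replicate 2. Rises from Control were called for 1 of the 14 at 1 h with each ligand, and at 3 h for 2 with AmTARS and 1 with Pam3CSK4. Klf2 was higher at 1 h by 0.37 with AmTARS, a call lost after the correction (0.14), and by 0.58 with Pam3CSK4. Trib1 was higher at 3 h by 0.31 and 0.51. At 3 h, Irs2 fell by 0.45 with AmTARS and by 0.96 with Pam3CSK4, and Sesn1 differed from Control by -0.02 and -0.76. Foxo3 fell by 0.42 with AmTARS, a call lost after the correction (limma adjusted p = 0.136), and by 0.71 with Pam3CSK4.

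In the Mondo, Mlx and Max network, 2 of 10 measured genes were higher with AmTARS than with Pam3CSK4 at 3 h, and 8 did not pass. The 2 were Mxd4 (0.42, SE 0.09) and Mnt (0.30, SE 0.06), both repressors that pair with Max. Without Pam3CSK4 3 h replicate 2 the count was 4 and without replicate 3 it was 1. Against Control at 3 h, Mxd4 differed by -0.19 with AmTARS and -0.61 with Pam3CSK4, and Mnt by -0.19 and -0.48. Mlxip, which encodes MondoA, differed by 0.15 between the ligands (limma adjusted p = 0.238), and Mlxipl, which encodes ChREBP, was not listed. Relative to Control, Mlxip fell by 0.36 and 0.30 with AmTARS at 1 h and 3 h and by 0.39 and 0.44 with Pam3CSK4. After the length and GC correction its differences were -0.12, -0.10, -0.13 and -0.22, and Pam3CSK4 3 h alone passed (limma adjusted p = 0.00246).

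Among the Nedd4-family ligases, the partners of the arrestin-domain proteins, and the ligase adaptors Ndfip1 and Ndfip2, 9 genes were measured. At 3 h, 1 was higher and 1 was lower with AmTARS than with Pam3CSK4. These were Wwp1 (0.42, SE 0.06, limma adjusted p = 4.85e-05) and Smurf1 (-0.30, SE 0.06, limma adjusted p = 0.00240). Wwp1 averaged 106 ± 0.495 CPM with AmTARS and 79.0 ± 9.40 CPM with Pam3CSK4 (SD, n = 2 each), against 140 ± 2.31 CPM in Control. Relative to Control, Smurf1 rose by 0.27 with Pam3CSK4 at 3 h, the 1 rise called in this list. Falls were called for 6 and 5 of the 9 with AmTARS at 1 h and 3 h and for 5 at each time with Pam3CSK4. Once length and GC content were corrected for, these counts were 1, 2, 3 and 4, with Ndfip1 among the last (-0.11, limma adjusted p = 0.0404). Without AmTARS 3 h replicate 1, the 5 with AmTARS at 3 h became 3. Among 5 other arrestin-fold genes, Vps26b (0.24), Arrb1 (0.22) and Dscr3 (0.18) were higher with AmTARS than with Pam3CSK4 at 3 h. The first and last are parts of retromer and retriever. That made 3 of the 5 higher, and 1 was lower. Without Pam3CSK4 3 h replicate 3 a single call was left among them, and without either AmTARS 3 h library 2. Against Control at 3 h the beta-arrestin gene Arrb2 was higher by 0.28 with AmTARS and 0.44 with Pam3CSK4, and Arrb1 fell by 0.26 and 0.48. With length and GC corrected, Arrb1 no longer passed with AmTARS (-0.07, limma adjusted p = 0.174). The other 3 calls were kept at smaller differences, 0.14 for Arrb2 with AmTARS, 0.30 for Arrb2 with Pam3CSK4 and -0.27 for Arrb1 with Pam3CSK4. As deposited, Vps26b differed from Control at 3 h by -0.09 with AmTARS and -0.34 with Pam3CSK4, and Dscr3 by 0.02 and -0.16.

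**Figure D5:**
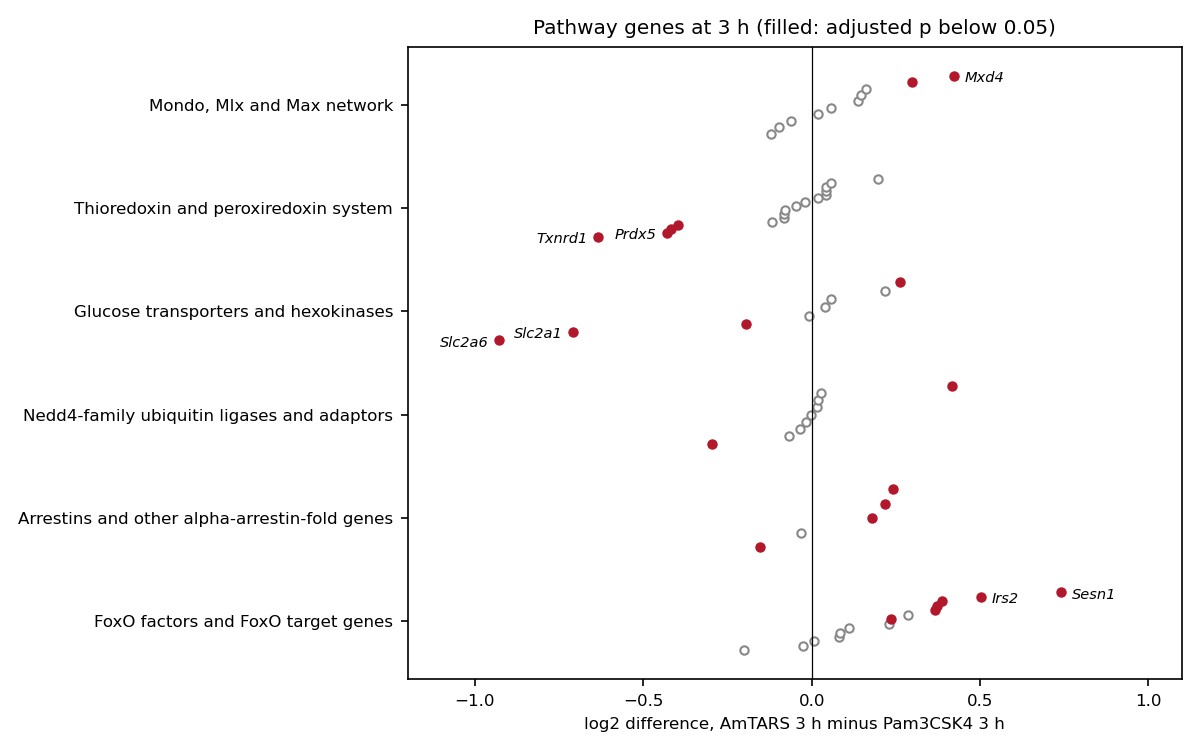
Log2 difference of AmTARS 3 h minus Pam3CSK4 3 h (horizontal axis) for each measured gene of the 6 lists (rows), filled where the adjusted p was below 0.05 with 7 of the largest differences named. Slc2a6, Slc2a1 and Txnrd1 lie furthest below 0 and Sesn1 furthest above it.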

How the data were processed

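Poly-A RNA was sequenced from stranded libraries, per the labels' protocols, and the submitters' processing notes name STAR 2.5.1, mm10 and R 3.3.0. For the counting tool, its use of strand and the scaling, a statement is not given in the sources used here. Values were deposited by the authors as log2(CPM + 1). Back-transformed, 100% of them were whole reads to within 0.1 read in each library.

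The 11407 genes averaging 1 CPM or more were fitted with limma 3.58.1 in R 4.3.3, with 1 mean per group over all 10 libraries and an intensity trend. Residual and prior degrees of freedom came to 5 and 14.7, and an adjusted p (Benjamini-Hochberg) below 0.05 was called. The SE is limma's moderated one, from a spread shared by all groups, and ± is the SD of 2 libraries. The SE can understate the spread of a group that varied more than the others. For Slc2a1 the SD was 39.7 CPM in Pam3CSK4 3 h and 7.59 CPM in AmTARS 3 h. The pseudocount of 1 CPM understates differences of low genes. Length and GC content came from GENCODE M21 (11366 tested genes matched), were fitted by natural splines with 5 degrees of freedom each, and were removed per library. The calculation was tested on simulated data. Figures were drawn with matplotlib 3.10.9.

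From each list and comparison, at most the 3 called genes with the largest difference were named, or the 1 largest where none was called. Txn1, Mlxip and the genes whose call or direction is traced between comparisons were followed beyond that rule, after their values were seen. Likeness named 5 genes per gene, leaving out symbols beginning with Gm or ending in Rik. The family, the lists and the tests were chosen with earlier results of these data known. Alternatives were other filters, pseudocounts, scalings and spread estimates, a replicate term, the length and GC correction, voom on the recovered reads, and omission of single libraries. A fit on the compared groups alone was added after seeing the data.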

Additional observations from a re-analysis of the deposited data

Results flagged for a closer look

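For 8 of the list genes named between the ligands at 3 h, the difference between AmTARS and Pam3CSK4 was not the same at 1 h. The test was limma's test of that change over all genes, with Benjamini-Hochberg adjustment. The difference at 3 h less that at 1 h, on the log2 scale, was 0.75 for Sesn1 (adjusted p = 7.26e-06) and 0.33 for Wwp1 (adjusted p = 0.0208). It was -0.83 for Slc2a6 (adjusted p = 2.31e-06), -0.67 for Slc2a1 (adjusted p = 0.000107) and -0.60 for Txnrd1 (adjusted p = 6.80e-05). It was -0.39 for Smurf1 (adjusted p = 0.00717), -0.35 for Srxn1 (adjusted p = 0.0312) and -0.31 for Prdx5 (adjusted p = 0.0272). These genes were picked for their difference at 3 h, which this test uses as well. List genes not named at 3 h are left out of the 8. The share of all genes called by this test is not given here. The 8 are therefore not a result about the lists. For Arrdc2 the libraries lay on opposite sides at the 2 times: AmTARS less Pam3CSK4 was 0.0795 at 3 h and -0.0727 at 1 h on the log2 scale. That change was not tested.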

How the results depend on the processing

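Between AmTARS 3 h and Pam3CSK4 3 h, the 5 family genes kept their side of the threshold under all 21 alternatives. Arrdc3 ran from 0.95 to 1.16 (limma adjusted p from 1.08e-11 to 1.63e-05) and Arrdc4 from -0.82 to -0.68 (5.35e-10 to 0.000107), both kept in sign. Txnip ran from -0.07 to 0.03 and was above 0 with quantile normalization (limma adjusted p from 0.342 to 0.780). The number of genes called there, 1953, was 2000 with voom and 1141 to 2103 with each library left out in turn, with 1193 without AmTARS 3 h replicate 1 and 1141 without Pam3CSK4 3 h replicate 3. Between the ligands at 1 h, 21 calls became 42 on the 4 libraries alone and 15 to 34 with a library left out, with 33 and 34 without Pam3CSK4 3 h replicate 2 and 3. After length and GC correction, 4415 calls for AmTARS 1 h against Control became 1589, 5556 for Pam3CSK4 1 h became 2602, and 4186 for AmTARS 3 h became 2094. These lower counts, among the 11366 matched genes, are the background for the corrected list counts. The corrected count for Pam3CSK4 3 h is not given here. With a library left out, AmTARS 1 h against Control gave 2603 to 4702 (2603 without Control replicate 2) and AmTARS 3 h against Control 1997 to 4438 (1997 without AmTARS 3 h replicate 1, 2313 without Control replicate 2).

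Where an arm was left with 1 library, it was assumed to vary like the other groups. Whether the replicate numbers of the titles pair the libraries is not given in the labels. Deviations of same-numbered libraries correlated between -0.206 and 0.204, and some groups share 1 number only. With 2 libraries a group, the deviations within a group mirror each other, so these correlations cannot decide it. With a replicate block, 1793 genes were called between the ligands at 3 h and 2017 for AmTARS 3 h against Control. Relative to Control at 3 h of AmTARS, the fit with the block called 1 FoxO-list fall in place of 9, and 8 thioredoxin-system rises in place of 13. In that fit Arrdc3 differed by 1.05 (limma adjusted p = 5.19e-10) and Arrdc4 by -0.77 (6.16e-09) between the ligands at 3 h. The cause of these shifts was not tested. With 2 libraries a group, the intervals between the ligands at 3 h allow a difference of up to 0.11 for Arrdc1 and 0.22 for Arrdc2.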
